A study of Mus musculus with 18 samples.

Results

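IL-1, TNF and related cytokine genes are described here in cultured mouse peritoneal macrophages given PCN or its solvent. The 10 genes were taken by symbol from a table of 21831 genes: the ligands Il1a, Il1b, Il18, Il6, Osm, Tnf and Tnfsf9, the IL-1 antagonist Il1rn, the decoy receptor Il1r2 and the TNF receptor Tnfrsf1b. All 10 were in the table and 9 had enough counts to be tested. Il1b did not. RNA came from C57BL/6 mice aged 6 weeks whose macrophages had been drawn into the abdominal cavity with thioglycollate. After attachment the cells were kept for 12 h with 20 µM PCN, short for pregnenolone 16α-carbonitrile, or with DMSO alone. PCN activates PXR, a nuclear receptor that senses foreign compounds. Cells of one genotype, called FF below, carry floxed PXR alleles, and cells of the other, called dMye, lack PXR in myeloid cells. The labels do not name the Cre driver. Each FF group (FF_DMSO, FF_PCN) had 3 libraries and each dMye group (dMye_DMSO, dMye_PCN) had 6. Numbers after a group name only tell its libraries apart.

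IL-1α and IL-1β act through one receptor, IL1R1, which signals through MyD88, IRAK kinases and TRAF6 to NF-κB and AP-1. Il1rn encodes the secreted antagonist that occupies this receptor without signalling, and IL1R2 binds IL-1 without signalling. TNF is shed from the cell surface by ADAM17 and acts on TNFR1 and TNFR2, the second encoded by Tnfrsf1b, while IL-6 and oncostatin M signal through gp130 and JAK kinases. Macrophages are a main source of these cytokines in inflamed tissue and in atherosclerotic plaques.

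The sequence before the transcription start is shown for 4 genes, Il1a and Il1rn because both rose with PCN in both genotypes, Tnf because it was called in FF, and Il6 because it differed most between genotypes under PCN. These are the 250 bases 5′ of the RefSeq start in GRCm38.p6: chr2:129309973-129310222 on the minus strand for Il1a, chr2:24336610-24336859 on the plus strand for Il1rn, chr17:35202008-35202257 on the minus strand for Tnf and chr5:30012864-30013113 on the plus strand for Il6. Capitals mark matches to an AP-1 motif (TGANTCA), an NF-κB motif (GGGA and TTCC with any 2 bases between them) or a TATA box (TATAAA), searched on both strands.
Il1a: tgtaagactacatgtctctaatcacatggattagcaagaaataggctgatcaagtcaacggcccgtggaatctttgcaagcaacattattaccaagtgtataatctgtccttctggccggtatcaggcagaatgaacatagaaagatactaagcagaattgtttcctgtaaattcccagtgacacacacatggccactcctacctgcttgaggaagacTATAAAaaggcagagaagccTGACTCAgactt
Il1rn: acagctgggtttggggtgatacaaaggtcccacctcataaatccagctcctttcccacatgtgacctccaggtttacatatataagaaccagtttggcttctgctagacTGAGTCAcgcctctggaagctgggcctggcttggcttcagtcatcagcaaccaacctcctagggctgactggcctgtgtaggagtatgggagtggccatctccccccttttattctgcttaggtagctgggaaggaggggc
Tnf: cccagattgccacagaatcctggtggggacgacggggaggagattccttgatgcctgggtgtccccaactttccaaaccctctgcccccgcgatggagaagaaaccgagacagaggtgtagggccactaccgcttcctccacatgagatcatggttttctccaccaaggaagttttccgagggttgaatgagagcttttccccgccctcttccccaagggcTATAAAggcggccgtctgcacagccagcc
Il6: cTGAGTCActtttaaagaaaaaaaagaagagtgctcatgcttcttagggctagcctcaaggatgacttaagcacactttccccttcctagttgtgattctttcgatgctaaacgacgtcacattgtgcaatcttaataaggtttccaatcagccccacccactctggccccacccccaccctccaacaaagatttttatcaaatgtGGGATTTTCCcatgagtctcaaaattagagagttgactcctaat

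RefSeq starts were matched for 8 of the 10 genes, with 10 windows of 300 bases, which also take in 50 bases after the start. Il1rn has 3 of these windows, of which the first is the one shown. The AP-1 motif was in 3 of the 10 windows, those of Il1a, at 12 bases before the start, and Il6 and the first of Il1rn, against 7.81% of all 32851 promoter windows. The NF-κB motif was found in the Il6 window alone among these 10, against 1.47% of all windows. The TATA box was somewhere in 5 of the 10 windows, against 13.6% of all windows, and in Il1a, Il1b and Tnf it lay just before the start. The hexamer AGTTCA, of the kind that makes up PXR sites, was in none of the 10 windows and in 14.0% of all. These are letter matches in short windows and do not show binding.

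Library totals ran from 21993687 to 30228032 counts, and levels below are CPM (counts scaled to these totals), as mean ± SD where a mean is given. Nr1i2, the gene of PXR, had a total of 2 and 1 counts in the FF groups and 2 and 3 in the dMye groups, so the deletion could not be checked at this depth. The Y-linked gene Ddx3y was at 46.2 and 57.9 CPM in the FF groups and 0.0166 and 0.228 CPM in the dMye groups, so sex follows genotype, and effects of PXR deletion and of sex cannot be told apart in any comparison of the genotypes. All 9 macrophage markers were present in every group. With PCN 6 of 9 fell in FF and 1 of 9 in dMye, against 6.98% and 1.14% of all tested genes. Between genotypes, 3 were higher and 2 lower in dMye under DMSO, against 13.9% and 7.85% of all tested genes. Under PCN 7 were higher and 1 lower, against 16.2% and 11.4%. The summed mesothelial and fibroblast markers were 146 to 184 CPM in FF and 608 to 788 CPM in dMye. Of these markers 9 of 9 were higher in dMye under both agents, against 13.9% and 16.2% of all tested genes. In bulk RNA, fewer cells of a type and less RNA per cell cannot be told apart. Of 12 neutrophil markers 7 had enough counts to be tested. Of these, 3 were lower in dMye than in FF under DMSO and 1 under PCN, against 7.85% and 11.4% of all tested genes. Their sum was 159 to 163 CPM in FF_DMSO, 121 to 130 in FF_PCN, 104 to 124 in dMye_DMSO and 104 to 121 in dMye_PCN, most of it Csf3r, at 122 CPM in FF_DMSO. Mmp8 was at 30.1 and 12.0 CPM in FF_DMSO and dMye_DMSO and S100a8 at 2.07 and 2.47 CPM, while Ly6g was at 0 in all libraries.

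In FF macrophages, PCN raised Il1a, Il1rn and Tnf, by 1.64-fold, 1.74-fold and 1.31-fold. The estimates of Il18, Il1r2, Tnfrsf1b and Il6 were below 0 but did not pass the test. These are 3 of 9 members called higher and 0 called lower (edgeR quasi-likelihood test, Benjamini-Hochberg adjusted p under 0.05), where 13.8% of all tested genes were called, 6.82% higher and 6.98% lower. The libraries of the agents did not overlap for 3 members higher and 3 lower, against 15.3% and 18.2% of all genes, or 33.4% in either direction. The summed macrophage markers were 10125 to 10831 CPM in FF_DMSO and 7212 to 7704 CPM in FF_PCN, and their part in these changes was not tested. Most of that sum is Lyz2, at 7141 and 4392 CPM, while Cd68 was at 2545 and 2475 CPM. Lyz2, Adgre1, Csf1r, Mertk, Itgam and Fcgr1 were called lower, at log2 fold changes from -0.68 to -0.25. Cd68, Cd14 and Mrc1 did not pass the test. At an unadjusted p under 0.05, 4 members were higher and 1 lower, and DESeq2 and limma-voom each called 3 higher and 0 lower. In dMye macrophages, Il1a and Il1rn rose by 1.30-fold and 1.28-fold. That is 2 of 9 higher and 0 lower, against 0.94% and 1.14% of all genes, 2.08% in all. Libraries did not overlap for 2 members higher and 0 lower, against 1.03% and 1.31%, or 2.33% in either direction. Unadjusted counts were 5 higher and 0 lower, DESeq2 called 3 and 0, and limma-voom 2 and 0. The median log2 fold change over the 9 members was 0.20 in FF and 0.35 in dMye, and over all tested genes 0.01 and -0.01. These medians take in the low-count Il1r2, at -1.04 in FF and 0.51 in dMye, and Il6, at -0.28 and 0.83. Il1a, Il1rn and Tnf had larger estimates in FF, though no difference of effects was called for any member. The PCN effect had the same sign in both genotypes in 7 of 9 members, 5 higher and 2 lower. This count takes in signs that were not called, and the share over all tested genes was not taken. The sign of Tnfsf9 in dMye changed without dMye_DMSO 1, dMye_PCN 3 or dMye_PCN 6, and that of Il6 in FF changed without FF_PCN 3.

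**Figure D1:**
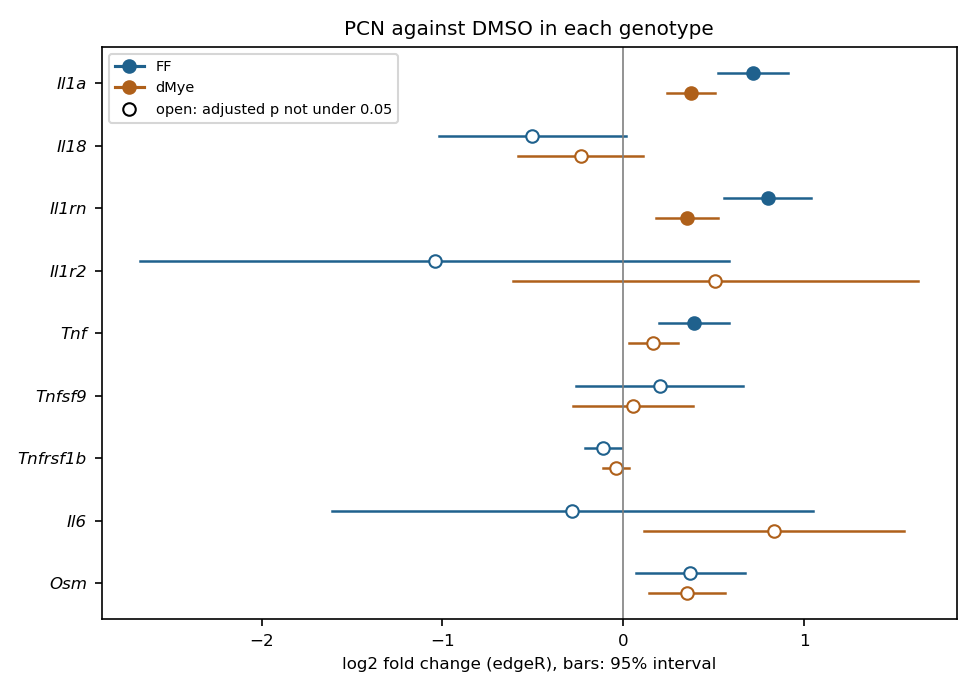
Log2 fold change of PCN against DMSO for each tested member, in FF and in dMye, with 95% intervals from the edgeR fit. The intervals of Il1a, Il1rn, Tnf and Osm lie above 0 in both genotypes. The estimates of the first 3 are larger in FF and those of Osm are 0.37 and 0.35, while Il1r2 and Il6 have wide intervals that cross 0 in FF. In dMye the Il6 interval is 0.112 to 1.55. The intervals are not adjusted for the number of genes, and Tnf and Il6 in dMye and Osm in both genotypes were not called.

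Between the genotypes, dMye cells had less Il1rn and Tnfrsf1b than FF cells under either agent. Under DMSO, 1 of 9 members was higher in dMye (Il1a) and 2 lower, against 13.9% and 7.85% of all tested genes, 21.8% in all. Libraries did not overlap for 2 members higher and 2 lower, against 17.3% and 6.26%, or 23.6% in either direction. Under PCN, 2 were higher (Il6 and Il18) and 2 lower, against 16.2% and 11.4%, 27.6% in all. Libraries did not overlap for 1 member higher and 2 lower, against 19.1% and 7.58%, or 26.7% in either direction. The members' shares rest on 9 genes and were not tested against those of all genes.

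Tnfrsf1b was the most abundant member per length of exon. Its level per kilobase (CPM divided by the exon length in GENCODE M21) was between 97.6 and 117 in the 4 group means. Il1a stood next at 20.2 to 32.6, then Il1rn at 7.84 to 18.1 and Tnf at 6.86 to 8.93, whose order was reversed in dMye_DMSO by a small margin. Tnfsf9, Osm and Il18 were between 1.72 and 4.65. Il1b, Il1r2 and Il6 were each under 0.4 in all groups, so that these macrophages carried IL-1α mRNA but almost no IL-1β mRNA.

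**Figure D2:**
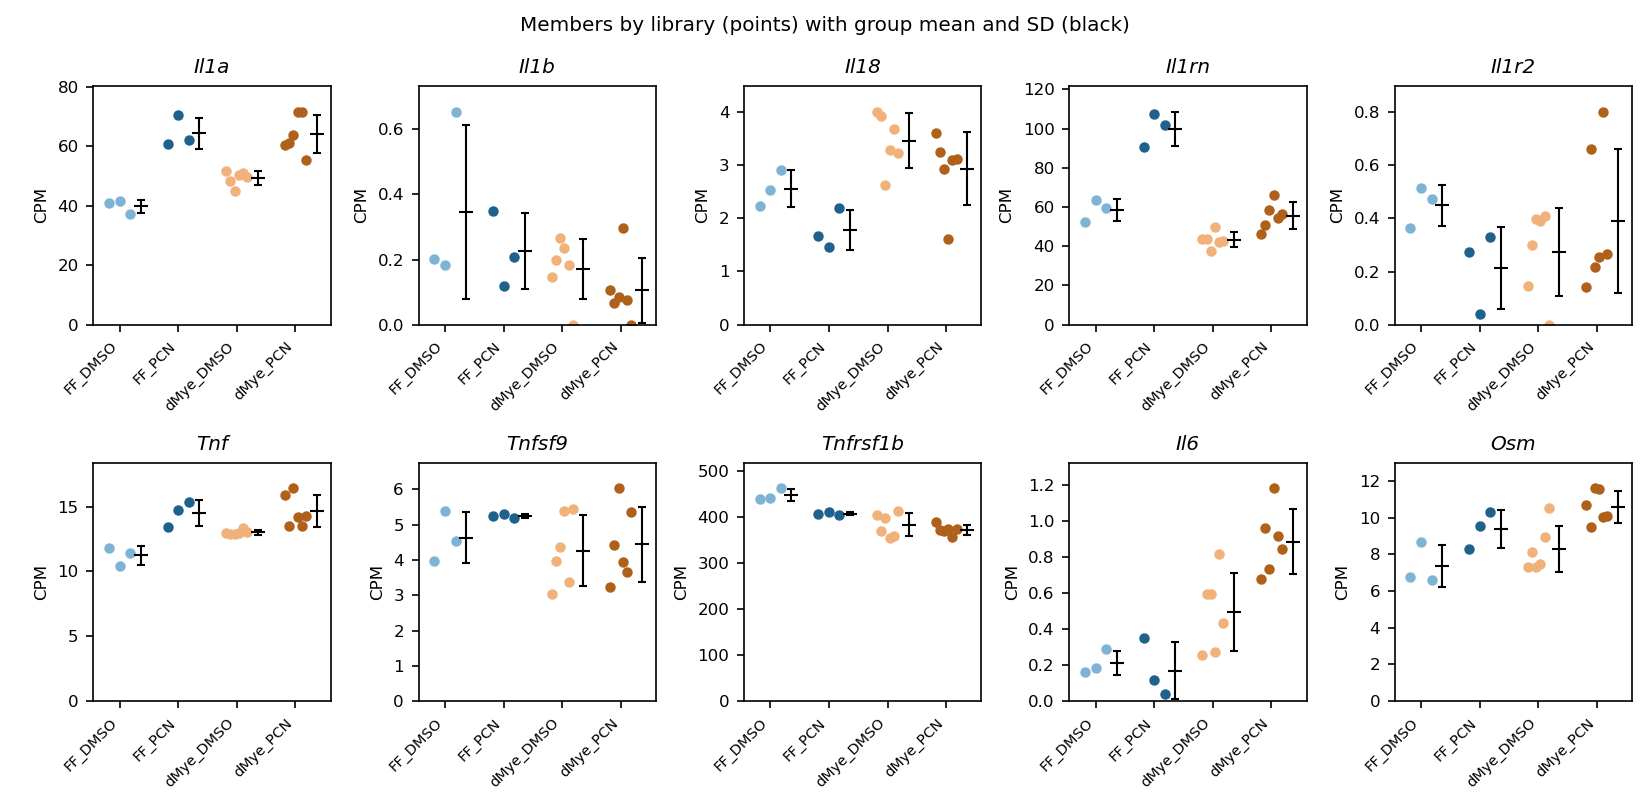
Level of each member in every library, in CPM, by group, with group means. Each gene has its own scale. Il1a, Il1rn, Tnf and Tnfrsf1b separate some of the groups without overlap. Il1b, Il1r2 and Il6 are below 0.7 CPM in every FF library.

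Il1a, on chromosome 2 at 129299610 to 129309972 of GRCm38, encodes IL-1α, which is active as a precursor and held in or on the cell. In FF_DMSO the 3 libraries were at 40.8, 41.4 and 37.3 CPM, and in FF_PCN at 60.9, 70.3 and 61.9. dMye_DMSO ran from 45.1 over a median of 49.9 to 51.6 CPM, and dMye_PCN from 55.3 over 62.5 to 71.6. PCN libraries were above DMSO libraries in both genotypes without overlap, and the DMSO groups did not overlap either. With PCN, the log2 fold change was 0.72 in FF (SE 0.0926, 95% interval 0.524 to 0.908, edgeR adjusted p = 1.5e-05) and 0.37 in dMye (SE 0.0649, adjusted p = 0.0026). Il1a was higher in dMye than in FF under DMSO by 0.28 (SE 0.0812, adjusted p = 0.015), a call that was lost without FF_DMSO 3 (0.22, adjusted p = 0.11). Under PCN the genotypes were close, at 64.4 ± 5.19 CPM in FF and 64.0 ± 6.45 in dMye, with a log2 difference of -0.06 (SE 0.0788, adjusted p = 0.63). The order of the means was thus FF_PCN, dMye_PCN, dMye_DMSO and FF_DMSO, where the first pair did not differ beyond its spread. The exons of Il1a overlap those of Gm14023 on the opposite strand, and as the use of strand in counting is not given in the sources used here, reads of the pair cannot be told apart.

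Il1b, the gene of the secreted pyrogen IL-1β, lies 54.6 kb from Il1a and was near the limit of detection. FF_DMSO had 5, 5 and 18 counts and FF_PCN 9, 3 and 5. The dMye libraries had 0 to 8 counts under DMSO and 0 to 7 under PCN. A count of 3 stands for 0.0992 to 0.136 CPM in these libraries. When Il1b was kept in by leaving out the filter on low counts, no comparison was called, with adjusted p from 0.38 to 1, so a change in Il1b was not detectable at this depth. Its exons overlap Il1bos on the opposite strand.

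Il18 encodes a constitutively made cytokine that caspase-1 activates. FF_DMSO libraries were at 2.22, 2.53 and 2.91 CPM and FF_PCN at 1.67, 1.47 and 2.19, all lower, yet the change of -0.50 (SE 0.25) did not pass the test (adjusted p = 0.20). In dMye_DMSO the lowest, median and highest libraries were at 2.62, 3.48 and 4.00 CPM, and in dMye_PCN at 1.61, 3.11 and 3.6. The PCN libraries of the genotypes overlapped, and Il18 was higher in dMye by 0.68 (SE 0.22, adjusted p = 0.025). This call was lost with limma-voom (adjusted p = 0.058), without FF_PCN 1 (0.091), without FF_PCN 2 (0.14) and without dMye_PCN 1 (0.054).

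Il1rn, which makes the receptor antagonist, rose with PCN and differed between the genotypes under both agents. FF_DMSO libraries were at 52.4, 63.4 and 59.3 CPM and FF_PCN at 90.4, 108 and 102. dMye_DMSO ran from 37.8 over 43.2 to 49.8 CPM and dMye_PCN from 46.4 over 55.4 to 66.4. All FF_PCN libraries lay above every library of the 3 other groups, and all FF_DMSO libraries above every dMye_DMSO library. PCN raised Il1rn in FF by 0.80 on the log2 scale (SE 0.115, 95% interval 0.559 to 1.04, edgeR adjusted p = 6.4e-05). In dMye the rise was 0.35 (SE 0.0829, adjusted p = 0.029) and the libraries overlapped. That call did not hold when only the compared groups were fitted (adjusted p = 0.056), nor without any 1 of dMye_DMSO 1, 2, 3, 5 or 6 or dMye_PCN 3, 4 or 6, with adjusted p up to 0.08.

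Il1rn was lower in dMye than in FF under DMSO, at a log2 difference of -0.45 (SE 0.0996, adjusted p = 0.0021). Under PCN it was -0.90 (SE 0.0969, adjusted p = 4e-07), or 0.536 of the FF level. From high to low the order was FF_PCN, FF_DMSO, dMye_PCN and dMye_DMSO, and the libraries of the middle 2 groups overlapped. The marker sums of neutrophils, B cells, dendritic cells and T and NK cells were also lower in dMye_DMSO than in FF_DMSO. Not every marker in them was, as the means of S100a8, Mmp9, Zbtb46 and Klrb1c were higher in dMye_DMSO, though not called. The macrophage sum, mostly Lyz2, was lower too, but 3 of its 9 markers were called higher and 2 lower. The mesothelial and fibroblast sum was higher, as was the mast cell sum, whose libraries overlapped. With PCN in FF the mean neutrophil sum, mostly Csf3r, went from 160 to 127 CPM. The part of any of these cells in the Il1rn differences was not tested. The mRNAs of the antagonist and of its competitor IL-1α thus differed in opposite directions between the genotypes under DMSO. The Il1a call was lost without FF_DMSO 3, and the genotypes also differ in sex.

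The number of Il1rn reads per Il1a read puts both on one scale, without adjusting for length. It was chosen after the values were seen and carries no test. In FF_DMSO it was 1.28, 1.53 and 1.59, and in FF_PCN 1.49, 1.53 and 1.64. In dMye_DMSO it lay between 0.830 and 0.991 and in dMye_PCN between 0.761 and 1.02. All 6 FF libraries were thus above all 12 dMye libraries, and the means with and without PCN were 1.55 and 1.47 in FF and 0.870 and 0.879 in dMye.

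**Figure D3:**
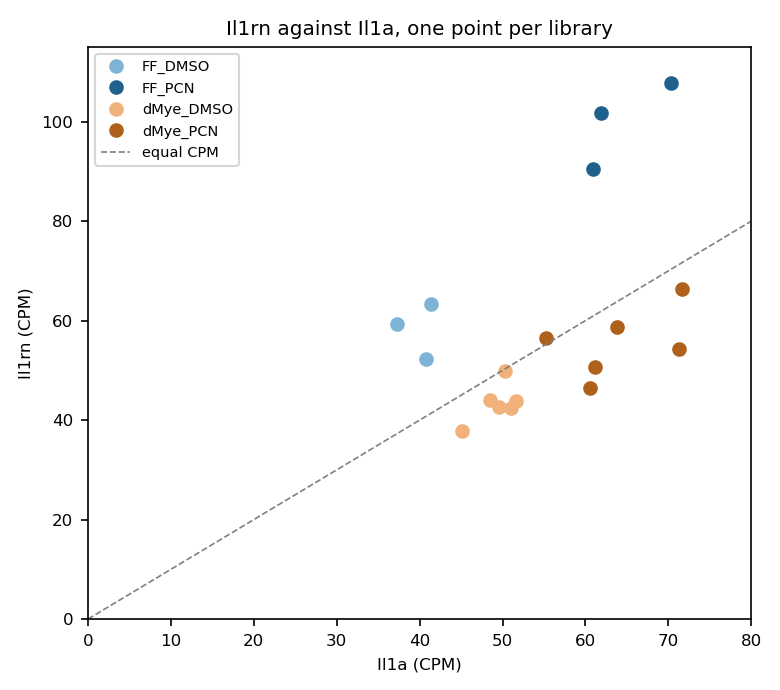
Il1rn against Il1a in every library, in CPM, with the groups marked. FF_PCN libraries reach 108 CPM of Il1rn at 60.9 to 70.3 CPM of Il1a, while dMye_PCN libraries with a like level of Il1a stay at or below 66.4 CPM of Il1rn.

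Il1r2, the decoy receptor, had few reads. FF_DMSO libraries had 9, 14 and 13 counts and FF_PCN 7, 1 and 8, and the dMye libraries ran from 0 to 0.409 CPM under DMSO and 0.142 to 0.803 CPM under PCN. Its log2 fold change with PCN was -1.04 in FF (SE 0.782, adjusted p = 0.44), and no comparison passed the test.

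Tnf, in the MHC region of chromosome 17 at 35199381 to 35202007, encodes the cytokine TNF. FF_DMSO libraries were at 11.8, 10.5 and 11.5 CPM and FF_PCN at 13.4, 14.7 and 15.4. dMye_DMSO libraries lay close together, from 12.9 over 13.0 to 13.4 CPM, and dMye_PCN ran from 13.5 over 14.2 to 16.4. PCN libraries were above DMSO libraries in both genotypes without overlap. In FF the rise was 0.39 (SE 0.094, 95% interval 0.195 to 0.585, adjusted p = 0.0067). In dMye the change was 0.17 (SE 0.0659) and did not pass (adjusted p = 0.22). Tnf under DMSO was at 13.0 ± 0.182 CPM in dMye and 11.2 ± 0.716 in FF, a log2 difference of 0.19 (SE 0.0822, adjusted p = 0.11). With PCN the genotypes were at 14.6 ± 1.24 and 14.5 ± 1.00 CPM (-0.04, adjusted p = 0.77).

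Tnfrsf1b, the gene of TNFR2, was at 440, 441 and 463 CPM in FF_DMSO and 407, 412 and 405 CPM in FF_PCN. dMye_DMSO ran from 355 over 383 to 413 CPM and dMye_PCN from 356 over 374 to 389. The FF libraries were lower with PCN without overlap, but the change of -0.11 (SE 0.0482) did not pass the test (adjusted p = 0.13), and it did with upper-quartile scaling (-0.15, adjusted p = 0.04) or when only the groups compared were fitted (-0.13, adjusted p = 0.029). Between genotypes it was lower in dMye, at a log2 difference of -0.25 under DMSO (SE 0.0414, adjusted p = 8.5e-05) and -0.18 under PCN (SE 0.0415, adjusted p = 0.0023). It had the smallest SE of the members, and these are the smallest differences called among them.

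Tnfsf9, which encodes the ligand of the costimulatory receptor 4-1BB, was at 3.96 to 5.39 CPM in FF_DMSO and 5.2 to 5.31 CPM in FF_PCN, with 3.05 to 5.46 and 3.24 to 6.04 CPM in the dMye groups. No comparison passed, and the PCN effects were 0.20 (SE 0.222) in FF and 0.06 (SE 0.16) in dMye. Its exons overlap those of Gm11110 on the opposite strand.

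Il6 was close to absent in FF and low in dMye. FF_DMSO had 4, 5 and 8 counts and FF_PCN 9, 3 and 1. dMye_DMSO ran from 0.257 over 0.516 to 0.818 CPM and dMye_PCN from 0.676 over 0.882 to 1.18 CPM. Under PCN every dMye library was above every FF library, with means of 0.886 ± 0.181 and 0.170 ± 0.160 CPM. That log2 difference of 2.29 (SE 0.515, 95% interval 1.22 to 3.36, adjusted p = 0.0019) was the largest of any called member, ran from 1.84 to 3.33 over the alternatives and was highest without FF_PCN 1. Under DMSO it was 1.18 (SE 0.502, adjusted p = 0.10), and PCN against DMSO in dMye was 0.83 (SE 0.346, adjusted p = 0.25), with overlapping libraries. The summed mesothelial and fibroblast markers, at 146 to 162 CPM in FF_PCN and 615 to 720 CPM in dMye_PCN, were also higher in dMye. Within dMye the mean sum was 711 CPM under DMSO and 660 CPM under PCN, where mean Il6 was 0.496 and 0.886 CPM. The part of these cells in the Il6 differences was not tested.

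Osm encodes oncostatin M, made by myeloid cells. FF_DMSO libraries were at 6.75, 8.69 and 6.62 CPM and FF_PCN at 8.28, 9.55 and 10.3. dMye_DMSO ran from 7.31 over 7.79 to 10.5 CPM and dMye_PCN from 9.46 over 10.4 to 11.6. Groups overlapped, and the PCN changes of 0.37 in FF (SE 0.145, adjusted p = 0.096) and 0.35 in dMye (SE 0.101, adjusted p = 0.074) did not pass. In dMye it passed with DESeq2 (adjusted p = 0.02) or without dMye_DMSO 6 (0.028), and in FF without FF_DMSO 2 (0.039).

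**Figure D4:**
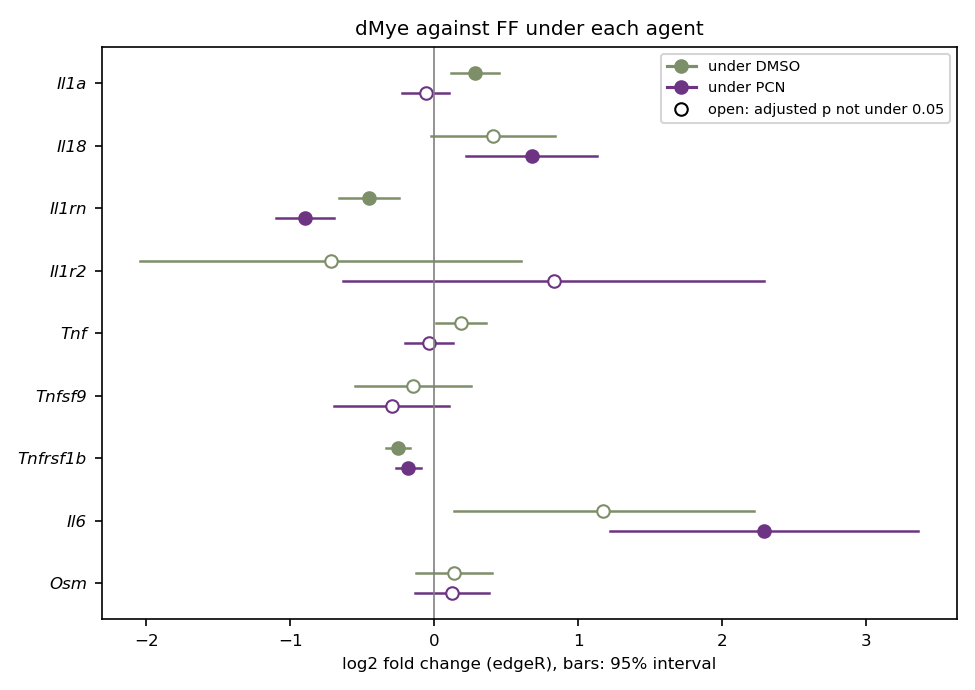
Log2 difference of dMye against FF for each tested member, under DMSO and under PCN, with 95% intervals. Il1rn and Tnfrsf1b are below 0 under both agents, Il6 is 2.29 under PCN, and the genotypes also differ in sex.

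The test of whether the PCN effect differed between the genotypes called 0 of 9 members (edgeR), where 1.42% of all genes were called, 0.746% higher and 0.671% lower. Before adjustment 2 members passed at 0.05, both with a smaller effect in dMye, and DESeq2 and limma-voom called 0. The differences were -0.34 for Il1a (SE 0.113, 95% interval -0.577 to -0.108, adjusted p = 0.15) and -0.45 for Il1rn (SE 0.142, 95% interval -0.742 to -0.152, adjusted p = 0.13). Tnf was at -0.22 (SE 0.115, adjusted p = 0.43). A weaker response in dMye is thus not shown for any member, and an equal one is not shown either.

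The wider lists of the same pathways were described by counts, beside the members, which they leave out. In parentheses stand log2 differences with edgeR adjusted p. The median log2 fold change with PCN in FF was -0.16 for the IL-1 family, -0.21 for the inflammasome, 0.14 for IL-1 receptor signalling, -0.29 for TNF ligands, 0.10 for TNF receptors, 0.12 for TNF shedding and signalling, -0.04 for gp130 signalling and -0.14 for other cytokines, against 0.01 over all tested genes. Of 9 tested IL-1 family ligands, receptors and binding proteins, 0 were called with PCN in either genotype. Over all tested genes the shares called were 13.8% in FF and 2.08% in dMye. At an unadjusted p under 0.05, 1 was higher and 1 lower in FF and 0 and 2 in dMye, with none called by DESeq2 or limma-voom. In dMye, 6 of the 9 were higher than in FF under DMSO and 3 under PCN, against 13.9% and 16.2% of all tested genes. By edgeR 0 were lower, against 7.85% and 11.4%, and 0 were lower by DESeq2, limma-voom or an unadjusted p under 0.05. The median log2 differences were 1.22 and 0.36, against 0.02 and 0.0027 over all tested genes. Il1r1, the signalling receptor, was at 4.12 ± 0.472 CPM in FF_DMSO and 10.3 ± 0.519 CPM in dMye_DMSO (log2 difference 1.31, adjusted p = 1.7e-08), and Il18r1 at 1.56 and 3.71 CPM (1.22, adjusted p = 8.5e-05). The mesothelial and fibroblast marker sum was also higher in dMye, and its part in these receptors was not tested.

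Downstream of the IL-1 receptor, 3 of 13 signalling genes rose with PCN in FF and 2 in dMye, against 6.82% and 0.94% of all tested genes. By edgeR 0 fell, against 6.98% and 1.14%. At an unadjusted p under 0.05, 1 fell in each genotype, and DESeq2 called 1 lower in FF and 0 in dMye, limma-voom 0. Tollip, a negative regulator of IRAK, went from 211 to 291 CPM in FF (0.49, adjusted p = 8e-06) and from 218 to 252 CPM in dMye (0.21, adjusted p = 0.011). Irak2 rose by 0.23 in FF (adjusted p = 9e-04). Traf6 was the other gene called in dMye (0.20, adjusted p = 0.034), and that call was lost in 9 of 19 alternatives. Under PCN 6 of the 13 were lower in dMye than in FF, against 11.4% of all tested genes. Among 16 inflammasome and processing genes, 1 rose and 4 fell with PCN in FF, against 6.82% and 6.98% of all tested genes. At an unadjusted p under 0.05, 10 were lower, DESeq2 called 6 lower, and 11 of the 16 had lower libraries without overlap, against 18.2% of all genes. Txnip, a thioredoxin inhibitor that also binds NLRP3, fell from 184 to 99.6 CPM in FF (-0.86, adjusted p = 3.6e-09) and from 178 to 150 CPM in dMye (-0.25, adjusted p = 0.0012), and that difference in effect passed its own test (0.61, adjusted p = 5.2e-05). Casp4 was the 1 that rose in FF (0.45, adjusted p = 0.00033). Of the 4 that fell in FF, Capn1 and Panx1 each lost the call in 5 of 13 alternatives.

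In the TNF branch, 0 of 7 tested ligands were called with PCN in FF, against 13.8% of all tested genes (2 lower at an unadjusted p under 0.05, none by DESeq2 or limma-voom). In dMye 1 of 7 fell, Tnfsf12 from 187 to 170 CPM (-0.15, adjusted p = 0.04), against 1.14% of all tested genes. That call was lost without a filter (adjusted p = 0.088), when only the groups compared were fitted (0.09) and without each of 11 of the 12 dMye libraries (0.055 to 0.097). Ltb and Tnfsf13 were lower in dMye under DMSO, at -1.67 (adjusted p = 0.0017) and -0.53 (adjusted p = 0.0025). B cell markers summed to 16.0 to 21.4 CPM in FF_DMSO and 5.30 to 7.46 CPM in dMye_DMSO, and their part in these ligands was not tested. Of 21 TNF receptor genes, 3 rose and 4 fell with PCN in FF, and 1 rose and 0 fell in dMye, against 6.82% and 6.98% of all tested genes in FF and 0.94% and 1.14% in dMye (dMye unadjusted 2 and 1, DESeq2 2 and 0, limma-voom 1 and 0). Tnfrsf26 rose in both, from 54.5 to 72.5 CPM in FF (0.43, adjusted p = 0.00013) and from 34.2 to 40.5 CPM in dMye (0.25, adjusted p = 0.01). Tnfrsf11b, which encodes osteoprotegerin, was at 1.21 CPM in FF_DMSO and 5.27 CPM in dMye_DMSO (2.09, adjusted p = 1.4e-07), beside the same marker sum as Il1r1. Of 24 genes of TNF shedding, signalling and mRNA decay, 7 rose and 2 fell with PCN in FF, against 6.82% and 6.98% of all tested genes. In dMye 1 rose and 0 fell, against 0.94% and 1.14%, with 5 and 1 at an unadjusted p under 0.05, 4 and 1 by DESeq2 and 2 and 0 by limma-voom. Tnfaip3, the deubiquitinase A20 that limits NF-κB, rose in both, by 0.34 (adjusted p = 0.00075) and 0.21 (adjusted p = 0.017), and Adam17 rose in FF from 305 to 350 CPM (0.22, adjusted p = 0.0023).

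For the gp130 cytokines, 4 of 16 genes rose and 2 fell with PCN in FF, against 6.82% and 6.98% of all tested genes, and 0 changed in dMye, against 2.08% (3 higher at an unadjusted p under 0.05, 1 by DESeq2, 0 by limma-voom). The 2 that fell in FF, Osmr and Ebi3, each lost the call in 7 of 13 alternatives, and limma-voom called 1 lower there. Osmr, the oncostatin M receptor, was at 1.89 CPM in FF_DMSO and 5.14 CPM in dMye_DMSO (1.42, adjusted p = 1.8e-07), and its difference under PCN was 2.26 (adjusted p = 3e-10), with the marker sum again higher in dMye. Jak1, a kinase used by gp130, was lower in dMye, at -0.23 (adjusted p = 0.00045) under DMSO. Among 8 other tested cytokines, Csf1 rose with PCN from 80.3 to 114 CPM in FF (0.52, adjusted p = 1.6e-05) and by 0.28 in dMye (adjusted p = 0.0023), and Il16 fell from 20.5 to 8.78 CPM in FF (-1.20, adjusted p = 9.2e-07) and by 0.44 in dMye (adjusted p = 0.0055). B cell marker sums were 16.0 to 21.4 CPM in FF_DMSO and 7.29 to 10.99 CPM in FF_PCN, with 4 of 6 markers lower, against 6.98% of all tested genes. They were 5.30 to 7.46 and 5.06 to 8.51 CPM in dMye_DMSO and dMye_PCN, and their part in the Il16 changes was not tested. Il16 fell less in dMye, by a difference of 0.76 that passed its own test (adjusted p = 0.012), a call lost without FF_DMSO 1 (0.74, adjusted p = 0.05).

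**Figure D5:**
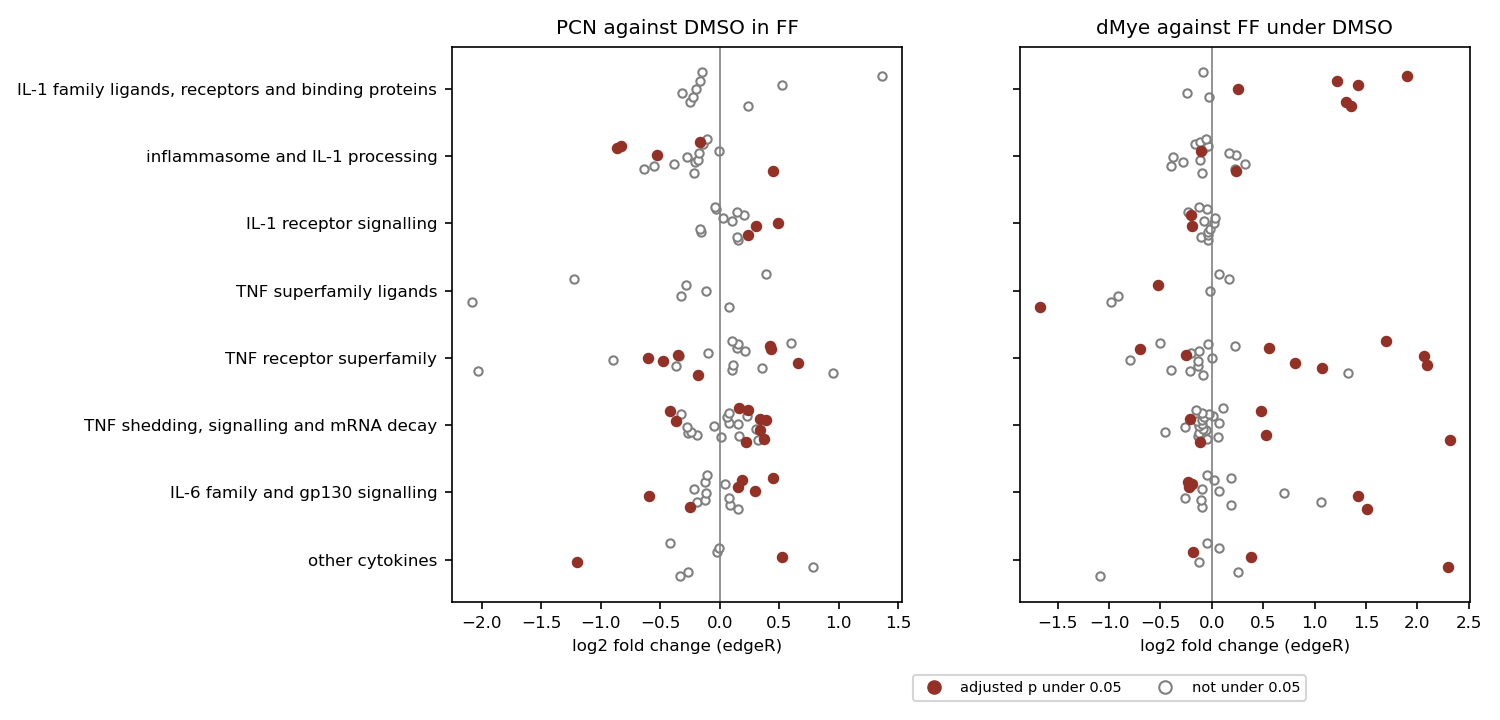
Log2 fold change of each tested gene in each pathway list, for PCN against DMSO in FF and for dMye against FF under DMSO. Filled points have an edgeR adjusted p under 0.05. The IL-1 family list has 6 genes called higher in dMye under DMSO and 0 called lower. The shedding and signalling list has 7 genes called higher with PCN in FF and 2 called lower.

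The genes whose levels ran closest to a member over the 18 libraries were taken by the root mean square difference of centred log2 CPM, which compares shape and size together. For Il1a they were Ccl3 (0.121) and Mreg (0.125), where Il1a itself had an SD of 0.281. For Il1rn they were Arap2 (0.0985) and Abcg1 (0.137), with an SD of 0.442. Tnf was nearest to Pisd (0.0868) and Grpel2 (0.0879), with an SD of 0.156, and Tnfrsf1b to Bin2 (0.0447) and Plekho2 (0.05), with an SD of 0.116. Ccl3, the chemokine MIP-1α, was at 56.3 and 91.4 CPM in the FF groups and 74.0 and 85.2 CPM in the dMye groups, without and with PCN. The low-count members had distant neighbours, with 0.508 for Il6 and 0.658 for Il1r2.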

How the data were processed

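For each of 18 libraries the authors deposited expected counts per gene, that is reads assigned by estimate, often with decimals. Reads were set against build mm10, per the submitters' processing notes, with aligner, quantifier, annotation and strand setting not given in the sources used here. Counts were rounded. filterByExpr kept 13409 genes. All 18 libraries in 4 groups entered 1 robust quasi-likelihood fit (edgeR 4.0.16 in R 4.3.3) with TMM scaling, without covariates, and p-values were Benjamini-Hochberg adjusted over all tested genes, called under 0.05. The SE is the size of the log2 fold change over the root of its F statistic. The fit was tested on simulated data. Whether replicate libraries are separate animals or cultures is not stated in the labels, so each p-value reflects only variation among the libraries, possibly technical. No pair of libraries agreed within sampling noise.

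The members and lists were chosen with earlier results of these data known. Named list genes are up to 4 called genes per list and comparison by smallest p, shown only in part, and 2 nearest genes were taken per tested member. As alternatives, the fit was repeated with upper-quartile or RLE scaling, without a filter, with a filter of 1 CPM in 6 libraries, with DESeq2 1.42.0 or limma-voom (limma 3.58.1), on only the groups compared, and without each library. Coordinates and exon lengths are from GENCODE M21 and promoters from RefSeq, both on GRCm38. A further allele, which all groups share, is not reported here.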

Additional observations from a re-analysis of the deposited data

Results flagged for a closer look

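In the groups of 6, the highest or lowest library was set against the nearest of the others by Dixon's ratio, for 10 genes in 2 groups, or 20 checks. Chance flags about 1 in 20 such groups. Library dMye_PCN 4 was high for Il1b at 0.296 CPM and low for Il18 at 1.61 CPM. Library dMye_DMSO 5 was high for Tnf at 13.4 CPM, in a group with a median of 13.0 CPM. Without dMye_PCN 4 the higher Il18 of dMye under PCN kept its call.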

How the results depend on the processing

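No paired analysis was possible because the labels give the libraries no replicate numbers that are shared between groups. Of the member results under the alternatives, 739 kept direction and call, 14 lost the call, 5 gained it and 15 changed sign, none of these with a call. The cause was not tested. The signs that changed were Il1a in dMye against FF under PCN without FF_PCN 2 (0.00548), Tnf in the same comparison with upper-quartile scaling (0.0166) and without FF_PCN 3 (0.00422), Tnfsf9 with PCN in dMye without dMye_DMSO 1 (-0.0283), dMye_PCN 3 (-0.0509) or dMye_PCN 6 (-0.00387), and Il6 with PCN in FF without FF_PCN 3 (0.148). With a library left out these ran from -0.102 to 0.00548 for Il1a, -0.096 to 0.00422 for Tnf, -0.0509 to 0.139 for Tnfsf9 and -1.34 to 0.148 for Il6. The Osm difference of PCN effects was 0.0103 with no filter, and without FF_DMSO 1, FF_DMSO 3, FF_PCN 2, FF_PCN 3, dMye_DMSO 5, dMye_DMSO 6 and dMye_PCN 2 it was 0.0533, 0.0705, 0.0099, 0.0698, 0.0291, 0.0533 and 0.0135, in a range from -0.159 to 0.0705.

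Genes called with PCN in FF ranged from 1201 (without FF_DMSO 1) to 1437 when 1 library was left out, against 1851. In dMye there were 279, with 584 by DESeq2, 144 when only the groups compared were fitted and 137 to 371 with a library left out. For the difference of PCN effects there were 190, with 426 by DESeq2 and 42 to 261 with a library left out. Upper-quartile scaling moved the split, to 704 higher of 1844 with PCN in FF, 85 of 272 in dMye, 2117 of 2786 for the genotypes under DMSO and 2528 of 3380 under PCN, against 915 of 1851, 126 of 279, 1869 of 2921 and 2176 of 3702. Members called lower with PCN in FF were 1 with upper-quartile scaling and with only the groups compared, against 0. Members called higher with PCN in dMye were 1 with only the groups compared and 1 to 2 with a library left out, against 2. In dMye against FF, members called higher were 0 to 1 under DMSO with a library left out, and under PCN 1 with the stricter filter, where Il6 was not tested, 1 with limma-voom and 1 to 2 with a library left out. Depth limits Il1b, Il1r2 and Il6 most.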
